A study of Homo sapiens with 8 samples.

Results

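The subunits and inhibitors of protein kinase A were followed in 2 human lung adenocarcinoma cell lines, A549 and PC9, with and without added EN2. The 9 genes were the inhibitors PKIA, PKIB and PKIG, the catalytic subunits PRKACA and PRKACB, and the regulatory subunits PRKAR1A, PRKAR1B, PRKAR2A and PRKAR2B. Every probe set whose array annotation gave 1 of these symbols alone was taken. That gave 32 of the 49495 probe sets of the array, or 32 of 49293 once controls were set aside: 3 for PKIA, 5 for PKIB, 3 for PKIG, 4 for PRKACA, 4 for PRKACB, 3 for PRKAR1A, 4 for PRKAR1B, 4 for PRKAR2A and 2 for PRKAR2B. All 32 were kept, with no filter on dim signals. Probe sets of a gene were measured on the same arrays and are not replicates.

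Cells of each line had been infected with retrovirus carrying EN2 or with the control Neo retrovirus and then put under selection for stable cells (the labels name genemycin). The 4 groups were A549 with EN2, A549 with vector, PC9 with EN2 and PC9 with vector, each with 2 arrays of total RNA. All 4 therefore carried a retroviral insert and had been selected. A549 was grown in F-12K and PC9 in Dulbecco's modified Eagle medium, so medium and line cannot be told apart. The labels do not say whether the stable cells were pools or single clones, nor whether the 2 replicates of a group came from separate cultures. Each p-value therefore reflects the spread between the arrays at hand, which may be technical only.

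EN2, an engrailed homeobox transcription factor, had log2 signals of 7.71 and 7.62 in A549 with EN2 and of 6.48 and 6.57 in A549 with vector. In PC9 it read 6.24 and 6.39 against 5.86 and 5.78. The change was 1.15 (SE 0.096, limma adjusted p = 0.00035) in A549 and 0.50 (SE 0.096, adjusted p = 0.111) in PC9, so the rise passed the test in A549 and missed it in PC9. Later values are given in the same order, replicate 1 before replicate 2. Background here is the 95th percentile of the 100 spike-in probe sets, 4.41 in A549 and 3.89 in PC9. The 5 epithelial markers, EPCAM, KRT8, KRT18, KRT19 and CDH1, were above it on every array. In A549 their mean level was 9.59 with EN2 and 10.19 with vector, and limma called CDH1 (−1.11, adjusted p = 0.000372), EPCAM (−0.77, adjusted p = 0.000929) and KRT19 (−0.70, adjusted p = 0.00208) lower, with KRT18 at −0.20 and KRT8 at −0.21 not called. In PC9 the mean was 12.84 with EN2 and 12.89 with vector, and none of the 5 was called. Of the leukocyte markers CD3E, CD14 and ITGAM were above background in both lines and PTPRC below, 3 of 4 measured. Of the fibroblast markers COL1A1, COL1A2 and PDGFRB were above and DCN and LUM below, 3 of 5. Of the endothelial markers, 3 of 4 were above in A549 (CDH5 below) and 4 of 4 in PC9. None of these other markers was called with EN2 in either line. Arrays of different lines correlated at 0.891 to 0.900 and arrays of a group at 0.997. The 18S rRNA control signal moved with EN2 in A549, at 11.66 and 12.12 in the EN2 arrays and 12.44 and 12.74 in the vector arrays. All 4 PC9 arrays lay between 6.05 and 6.10. In A549 the groups did not overlap, so a fit with 18S rRNA as a covariate cannot separate it from EN2 there.

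Protein kinase A is held inactive as a complex of catalytic and regulatory subunits. Cyclic AMP binds the regulatory subunits and frees the catalytic subunits, which phosphorylate targets in the cytoplasm and nucleus, CREB among them. The PKI proteins bind free catalytic subunits as pseudosubstrates, block them and carry them out of the nucleus. Type I regulatory subunits (PRKAR1A, PRKAR1B) are largely cytosolic, and type II subunits (PRKAR2A, PRKAR2B) are tethered by A-kinase anchoring proteins.

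PKIB had lower and PRKAR2B higher signal with EN2 in both lines. None of the 25 probe sets of the other 7 genes passed the test in either line. Of all probe sets, 1.98% passed in A549 and 0.284% in PC9. PKIB and PRKAR2B were not put to this test, so it does not set them apart from the other 7. By the brightest probe set PKIB was 4.88-fold lower in A549 and 1.50-fold lower in PC9, and PRKAR2B was 1.78-fold higher in A549 and 2.38-fold higher in PC9. The gene family was chosen by earlier results on these arrays, in which PKIB and PRKAR2B differed with EN2. Their EN2 values are therefore given as a description with no test. In bulk RNA, fewer cells of a type and less RNA per cell cannot be told apart.

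**Figure D1:**
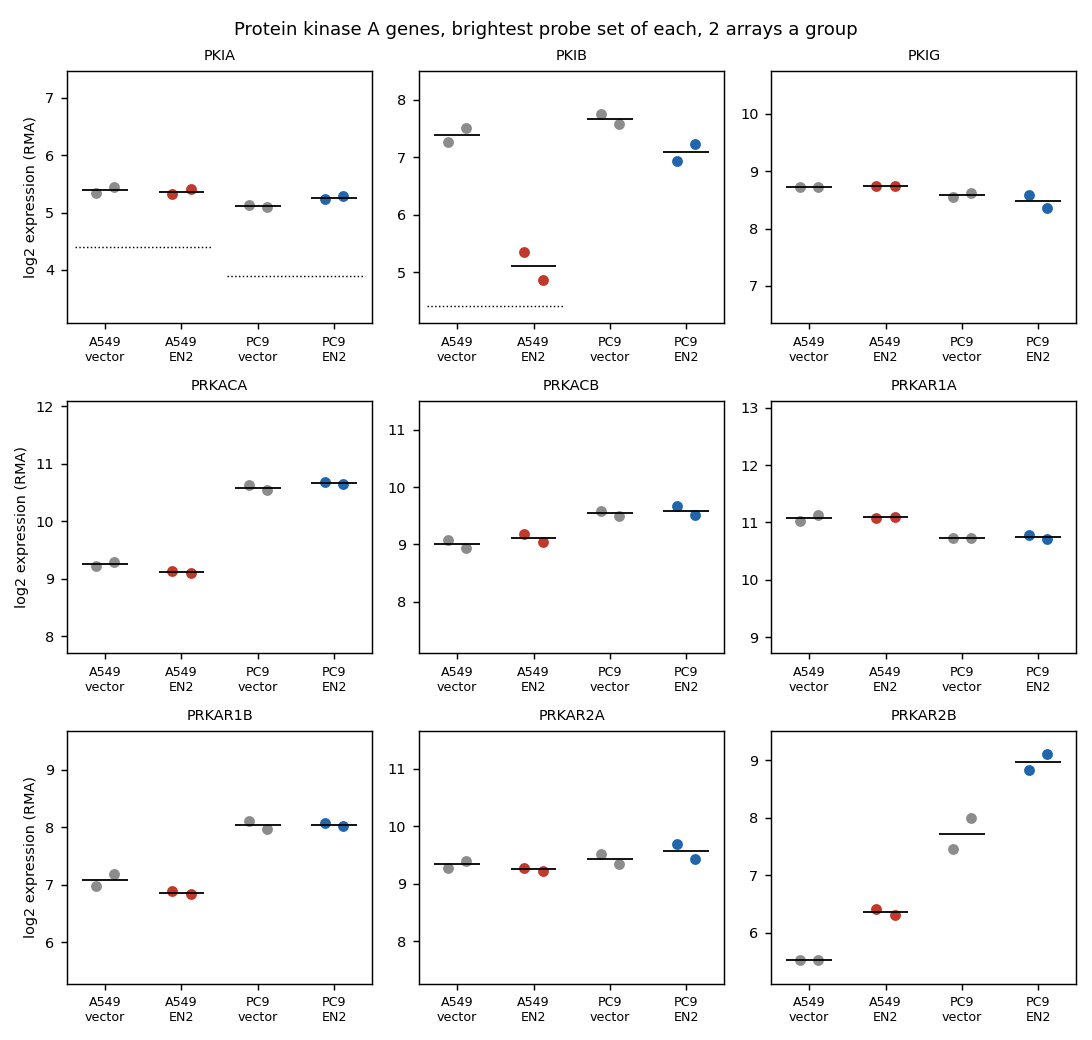
Log2 signal of the brightest probe set of each of the 9 genes, 1 point per array, with the mean of the 2 arrays as a black bar and the spike-in background of each line as a dotted line. Grey is vector, red A549 with EN2 and blue PC9 with EN2. Each panel spans the same number of log2 units, and PKIB and PRKAR2B show the widest gaps between EN2 and vector.

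The promoters of PKIB and PRKAR2B are shown because these are the members that differed with EN2, itself a DNA-binding homeodomain protein. They are the 250 bases before the annotated starts in RefSeq, on GRCh38.p14, written 5′ to 3′ in lower case. Capitals mark TAATTA, a core that homeodomain proteins of the engrailed class bind, and TGACG or its reverse complement CGTCA, the core of the cyclic AMP response element. TAATTA reads the same on both strands. The full element TGACGTCA, which contains the shorter core on both strands, was searched too and was in none of these 4 windows. RefSeq gave 3 promoters for PKIB, at chr6:122471671-122471920, chr6:122610155-122610404 and chr6:122652479-122652728, and 1 for PRKAR2B, at chr7:107044455-107044704. All 4 lie on the plus strand.
PKIB promoter 1: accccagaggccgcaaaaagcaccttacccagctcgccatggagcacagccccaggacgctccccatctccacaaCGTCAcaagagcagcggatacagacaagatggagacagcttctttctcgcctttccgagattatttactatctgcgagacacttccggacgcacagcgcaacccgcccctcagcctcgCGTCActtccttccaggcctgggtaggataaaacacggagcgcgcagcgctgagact
PKIB promoter 2: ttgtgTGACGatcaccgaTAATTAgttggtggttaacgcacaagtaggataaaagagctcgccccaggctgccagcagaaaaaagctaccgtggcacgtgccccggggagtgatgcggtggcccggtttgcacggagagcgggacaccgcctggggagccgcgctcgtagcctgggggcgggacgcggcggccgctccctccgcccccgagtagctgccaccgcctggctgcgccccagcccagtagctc
PKIB promoter 3: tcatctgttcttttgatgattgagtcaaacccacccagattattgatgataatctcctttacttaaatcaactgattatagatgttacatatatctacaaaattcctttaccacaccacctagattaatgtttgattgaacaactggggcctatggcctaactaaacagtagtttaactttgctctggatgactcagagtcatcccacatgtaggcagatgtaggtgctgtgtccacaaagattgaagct
PRKAR2B promoter 1: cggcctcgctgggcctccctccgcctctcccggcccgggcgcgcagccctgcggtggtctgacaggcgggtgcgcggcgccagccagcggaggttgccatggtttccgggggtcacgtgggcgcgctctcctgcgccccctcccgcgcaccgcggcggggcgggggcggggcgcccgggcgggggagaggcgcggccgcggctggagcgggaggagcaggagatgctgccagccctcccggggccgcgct
PKIB promoter 1 held CGTCA at 175 and 57 bases before the start. PKIB promoter 2 held TGACG at 245 bases and TAATTA at 232 bases before it. PKIB promoter 3 and the PRKAR2B promoter held none of these letters. The windows differed in base composition, with a GC content of 58.4%, 66.4% and 37.6% for the 3 PKIB promoters and 81.6% for PRKAR2B. Of all 35116 RefSeq promoters of the same length, 4.35% held TAATTA, 21.2% held TGACG or CGTCA, and 1.65% held TGACGTCA. The table gave 25 promoters for 8 of the 9 genes, none for PKIA. TAATTA was in 1 of the 25, and TGACGTCA only in promoter 3 of PRKAR1A. A match of letters is a description and shows no binding.

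PKIB encodes the beta form of the kinase inhibitor. Its brightest probe set, 11755975_x_at, read 5.35 and 4.86 on the log2 scale with EN2 and 7.27 and 7.50 with vector in A549. In PC9 it read 6.93 and 7.24 with EN2 and 7.76 and 7.58 with vector. In each line both EN2 arrays lay below both vector arrays, and the A549 EN2 arrays were the lowest of the 8. The means were 5.10 ± 0.35 against 7.39 ± 0.16 in A549 and 7.08 ± 0.22 against 7.67 ± 0.13 in PC9 (SD, n = 2 each). PKIB was thus 4.88-fold lower with EN2 in A549 (log2 difference −2.29, SE 0.17) and 1.50-fold lower in PC9 (log2 difference −0.59, SE 0.17). Both EN2 groups had less, on the same arrays by which PKIB had been picked out.

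The other 4 PKIB probe sets ran the same way in both lines. Probe set 11727554_s_at read 4.29 and 3.92 with EN2 and 6.93 and 7.01 with vector in A549. Both A549 EN2 arrays were under the A549 background of 4.41. Against the background, PKIB was at least 5.92-fold lower with EN2 (measured means 4.11 and 6.97). The same probe set read 6.70 and 6.77 with EN2 and 7.22 and 7.11 with vector in PC9, 1.35-fold lower. Probe set 11727553_a_at read 4.56 and 4.24 with EN2 and 6.56 and 6.52 with vector in A549, 4.39-fold lower, with 1 of the EN2 arrays under background. It read 6.49 and 6.65 with EN2 and 7.11 and 6.87 with vector in PC9, 1.34-fold lower. The first of these probe sets thus ended below the detection level in A549, and the second at it.

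The remaining pair of PKIB probe sets, 11732699_a_at and 11732700_x_at, were dim. All 4 A549 arrays were below background for both, so no fold is given there, although both EN2 arrays again lay under both vector arrays. In PC9 the first read 4.31 and 4.50 with EN2 and 4.85 and 4.98 with vector, 1.43-fold lower. The second read 4.23 and 4.58 with EN2 and 4.72 and 4.75 with vector, 1.26-fold lower. All 5 probe sets of PKIB therefore had no overlap between EN2 and vector arrays in A549 and in PC9. Over all probe sets, EN2 arrays were both below both vector arrays for 24.2% in A549 and 15.7% in PC9.

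EN2 and vector arrays did not overlap for PKIB, so leaving out an array could not turn the sign and showed only how the size moved. For 11755975_x_at the log2 difference ran from −2.53 to −2.04 in A549 and from −0.74 to −0.43 in PC9. With 18S rRNA in the model as a covariate it was −2.67 in A549 and −0.60 in PC9. The A549 value cannot be read as corrected for 18S rRNA, which did not overlap between EN2 and vector arrays there. The dim probe set 11732699_a_at went from −0.86 to −0.71 in A549 with the covariate. Its A549 arrays were all below background, so neither value measures the size of a PKIB difference. The epithelial markers CDH1, EPCAM and KRT19 were also lower in the A549 EN2 arrays, and their part in the PKIB difference was not tested.

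**Figure D2:**
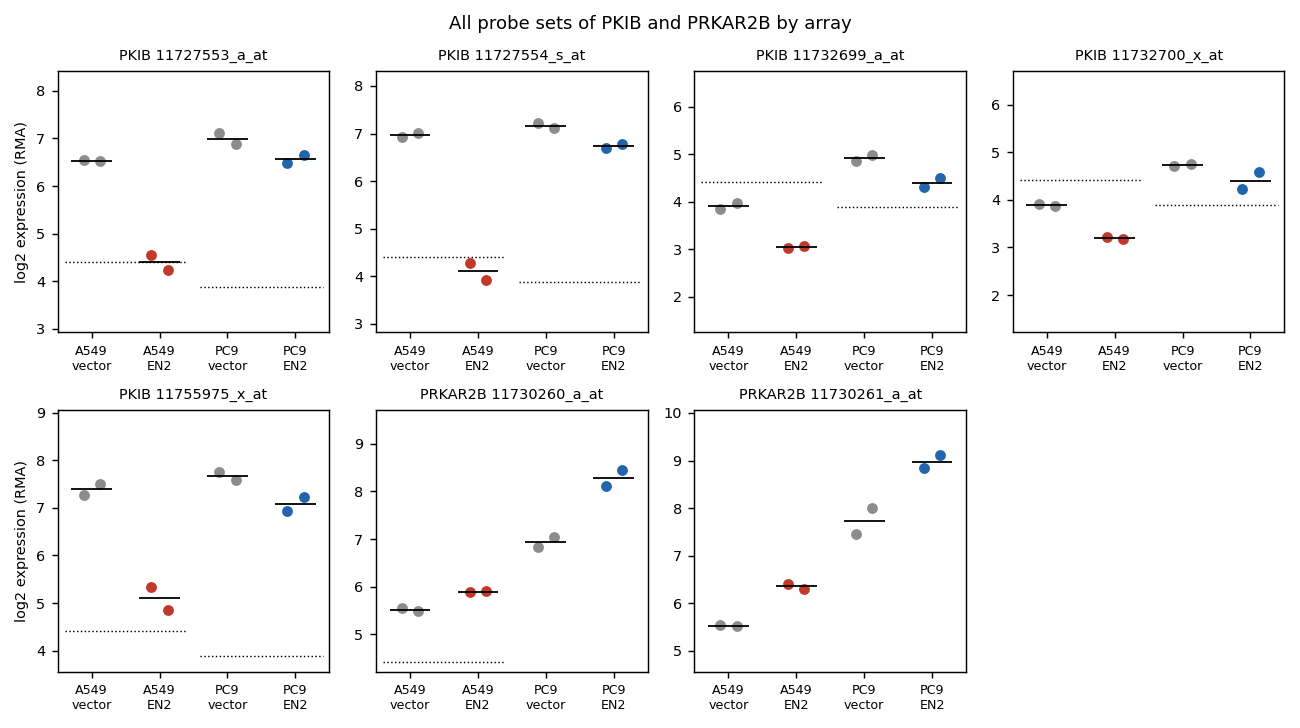
Log2 signal of every probe set of PKIB (5 panels) and PRKAR2B (2 panels), 1 point per array, with group means as black bars and the background of each line dotted. Vector arrays are grey, A549 EN2 arrays red and PC9 EN2 arrays blue; EN2 arrays lie below vector arrays in all PKIB panels and above them in both PRKAR2B panels.

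PKIA and PKIG, the alpha and gamma inhibitors, did not pass the test in either line. The brightest PKIA probe set, 11741174_s_at, read 5.32 and 5.40 with EN2 and 5.35 and 5.45 with vector in A549, and 5.24 and 5.28 with EN2 and 5.14 and 5.09 with vector in PC9. Its difference was −0.034 (SE 0.091, limma adjusted p = 0.927) in A549 and 0.15 (SE 0.091, adjusted p = 0.919) in PC9. The groups overlapped in A549 and did not in PC9. The other 2 PKIA probe sets were below background on all 8 arrays. PKIG was above background on every array with all 3 of its probe sets. The brightest, 11758657_s_at, read 8.74 and 8.74 with EN2 and 8.73 and 8.72 with vector in A549, a difference of 0.016 (limma adjusted p = 0.97). In PC9 it read 8.59 and 8.36 with EN2 and 8.54 and 8.61 with vector, a difference of −0.10 (limma adjusted p = 0.982). Across the 3 PKIG probe sets the differences ran from −0.012 to 0.033 in A549 and from −0.10 to 0.11 in PC9. By the brightest probe set of each of the 3 inhibitor genes, PKIB alone had EN2 and vector arrays more than 1 log2 unit apart in A549. The PKIB difference was known when the family was chosen.

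The catalytic subunits did not pass the test with EN2. PRKACA encodes the alpha and PRKACB the beta catalytic subunit. The brightest PRKACA probe set, 11757881_s_at, read 9.14 and 9.11 with EN2 and 9.23 and 9.30 with vector in A549, a difference of −0.14 (SE 0.066, limma adjusted p = 0.331). It read 10.69 and 10.65 with EN2 and 10.63 and 10.55 with vector in PC9, a difference of 0.084 (SE 0.066, limma adjusted p = 0.971). EN2 arrays were the lower ones in A549 and the higher ones in PC9, but the difference between the lines, −0.23, did not pass the test (limma adjusted p = 0.422). The 4 PRKACA probe sets ran from −0.22 to 0.053 in A549 and from −0.22 to 0.084 in PC9. The −0.22 in A549 came from 11735763_a_at, and neither it nor 11716146_x_at was above background on any A549 array. PRKACB, by 11716703_a_at, read 9.18 and 9.05 with EN2 and 9.08 and 8.94 with vector in A549, and 9.66 and 9.51 with EN2 and 9.59 and 9.50 with vector in PC9. EN2 and vector arrays overlapped in both lines, with a difference of 0.11 for A549 (limma adjusted p = 0.647) and of 0.042 for PC9 (limma adjusted p = 1). Its 4 probe sets ran from −0.16 to 0.21 in A549 and from −0.056 to 0.22 in PC9. The −0.16 came from 11754927_x_at, which was above background on no A549 array.

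PRKAR2B, the beta type II regulatory subunit, had higher signal in the EN2 cells of both lines with both of its probe sets. Its brightest probe set, 11730261_a_at, read 6.41 and 6.31 with EN2 and 5.53 and 5.52 with vector in A549. In PC9 it read 8.84 and 9.11 with EN2 and 7.46 and 7.99 with vector. Both EN2 arrays were above both vector arrays in each line, and the PC9 vector arrays were the least alike of the 4 pairs. The means were 6.36 ± 0.071 against 5.53 ± 0.012 in A549 and 8.98 ± 0.19 against 7.72 ± 0.38 in PC9 (SD, n = 2 each). PRKAR2B was 1.78-fold higher with EN2 in A549 (log2 difference 0.83, SE 0.16) and 2.38-fold higher in PC9 (log2 difference 1.25, SE 0.16). Without each PC9 array in turn, the PC9 difference ran from 0.98 to 1.52.

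The second PRKAR2B probe set, 11730260_a_at, read 5.89 and 5.90 with EN2 and 5.54 and 5.48 with vector in A549, 1.30-fold higher. In PC9 it read 8.12 and 8.45 with EN2 and 6.84 and 7.05 with vector, 2.53-fold higher. For both probe sets the order of groups from high to low was PC9 with EN2, PC9 with vector, A549 with EN2 and A549 with vector, and no neighbours in that order overlapped, on the deposited scale. Over all probe sets, EN2 arrays were both above both vector arrays for 22% in A549 and 17.1% in PC9. With 18S rRNA as a covariate the A549 differences were 0.77 for 11730261_a_at and 0.37 for 11730260_a_at.

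PRKAR1A, the alpha type I regulatory subunit, gave close values with and without EN2. By 11722008_a_at it read 11.08 and 11.10 with EN2 and 11.02 and 11.13 with vector in A549, and 10.79 and 10.71 with EN2 and 10.73 and 10.73 with vector in PC9. The A549 difference was 0.015 (limma adjusted p = 0.958), and the PC9 difference was 0.016 (limma adjusted p = 1). A second probe set, 11722007_a_at, was 0.21 higher with EN2 in PC9, with an unadjusted p of 0.0265 and an adjusted p of 0.697 from limma.

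PRKAR1B, the beta type I subunit, had lower signal in A549 EN2 arrays with all 4 of its probe sets, but none passed the test. By 11743121_a_at it read 6.89 and 6.84 with EN2 and 6.97 and 7.18 with vector in A549, and 8.07 and 8.02 with EN2 and 8.11 and 7.96 with vector in PC9. The A549 differences of the 4 probe sets ran from −0.30 to −0.20 (limma adjusted p = 0.263 to 0.552), with both EN2 arrays under both vector arrays each time. In PC9 they ran from −0.25 to 0.13.

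PRKAR2A, the alpha type II subunit, had lower means with EN2 in A549 with all 4 probe sets, and none passed. By 11760103_at it read 9.27 and 9.22 with EN2 and 9.28 and 9.39 with vector in A549, and 9.69 and 9.43 with EN2 and 9.52 and 9.34 with vector in PC9. The A549 differences ran from −0.32 to −0.087. The widest, of 11746478_a_at, came from 5.14 and 5.20 with EN2 and 5.42 and 5.56 with vector (SE 0.099, limma unadjusted p = 0.00937, adjusted p = 0.144).

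Over the 7 members other than PKIB and PRKAR2B, 0 of 25 probe sets were called by limma at an adjusted p below 0.05 in A549, 0 in PC9 and 0 for the difference between the lines. At an unadjusted p below 0.05 there were 3, 1 and 3, where 16.1%, 6.37% and 10.8% of all probe sets passed that level. Of all 49293 probe sets, 1.98% were called in A549, 0.284% in PC9 and 0.54% for the difference, so 25 probe sets at these rates would give few or no calls. In A549 the EN2 and vector arrays did not overlap for 1 of the 25 with EN2 higher and 9 with EN2 lower, where EN2 was higher for 22% and lower for 24.2% of all probe sets, or 46.2% together. In PC9 there were 6 with EN2 higher and 2 with EN2 lower, where the shares over all were 17.1% and 15.7%, or 32.8% together. The median change of the 25 was −0.051 in A549 and 0.0095 in PC9, against −0.0060 and 0.0022 over all probe sets. Taken in both directions, 40% of the 25 in A549 and 32% in PC9 did not overlap. By direction, the members' shares were 4% higher and 36% lower in A549, and 24% higher and 8% lower in PC9, from probe sets that share genes.

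**Figure D3:**
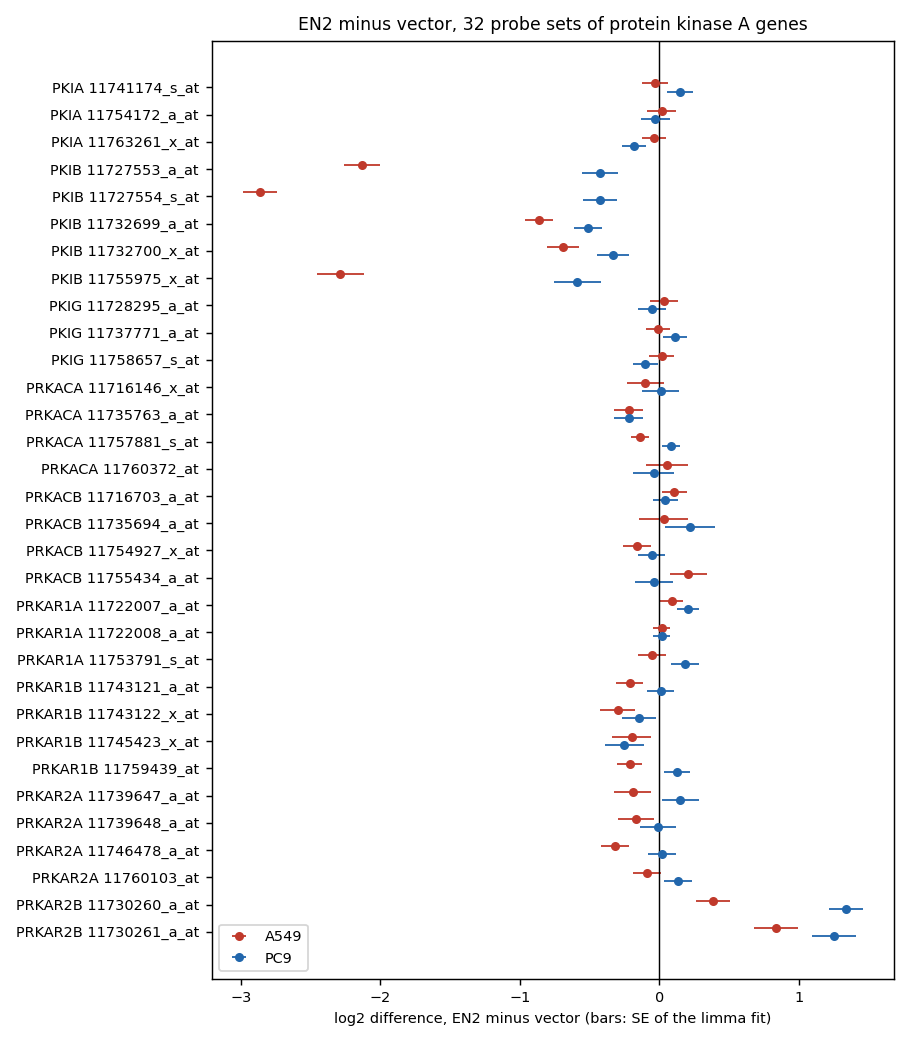
Log2 change, EN2 minus vector, of all 32 probe sets in A549 (red) and PC9 (blue), with bars of 1 SE from the limma model. PKIB probe sets lie left of 0 and PRKAR2B right of 0 in both lines; the changes of the other 25 lie between −0.32 and 0.22.

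The vector controls were compared to see which members the lines already differ in. How A549 and PC9 values were scaled against each other is not known, and the median of all probe sets was 0.21 higher in A549. Calls are therefore read as differences between the lines only where they held, in the same direction, under all 3 scalings. These were the values as deposited, after quantile normalisation over all arrays and after median centring. Other calls are given with their scaling. The 18S rRNA signal also followed line, at 12.44 and 12.74 on A549 vector arrays and 6.05 and 6.10 on PC9 vector arrays. Its part in the baseline was not tested, since a covariate centred within each line cannot adjust for a gap between lines. As deposited, 21 of 32 member probe sets were called, 8 higher and 13 lower in A549, where 74.2% of all probe sets were called (47.7% higher, 26.5% lower). Under each of the other scalings the members split into 4 higher and 17 lower. Of all called probe sets, 64.3% were higher in A549 as deposited, 49.6% after quantile normalisation and 47.3% after centring. Under all 3 scalings, 3 member probe sets were higher and 13 lower in A549, against 29.9% higher and 26.1% lower over all probe sets.

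The 13 lower in A549 held both probe sets of PRKAR2B, all 4 of PRKAR1B, 3 of PRKACB, 1 of PRKACA and 3 of PKIB. PRKAR2B was 4.59-fold lower in A549 vector cells by 11730261_a_at (log2 difference −2.20, SE 0.16, limma adjusted p = 8.2e-07) and 2.69-fold lower by 11730260_a_at (adjusted p = 2.7e-06). The A549 vector arrays, at 5.53 and 5.52 for the first, lay well under the PC9 vector arrays at 7.46 and 7.99. PRKACA was 2.50-fold lower by 11757881_s_at (log2 difference −1.32, SE 0.066, limma adjusted p = 5.68e-08). PRKAR1B was 1.95-fold lower by 11743121_a_at (limma adjusted p = 1.01e-05), and its 4 probe sets ran from −0.99 to −0.50. The other PRKACA probe set above background in both lines, 11760372_at, differed by −0.067 as deposited, not called. It differed by −0.45 after quantile normalisation (called, limma adjusted p = 0.0205) and by −0.31 after centring (not called, adjusted p = 0.0898). The 2 PRKACA probe sets thus shared a direction, but only 11757881_s_at was called under all 3 scalings. PRKACB was 1.45-fold lower by 11716703_a_at (limma adjusted p = 0.000336) and 1.93-fold lower by 11755434_a_at (adjusted p = 0.000111). The remaining called PRKACB probe set, 11754927_x_at, read below background on both A549 vector arrays, so PC9 was at least 1.06-fold higher. Every probe set of the beta regulatory subunits of both types thus had lower signal in A549.

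The PKIB baseline differed by probe set. Of its 5 probe sets, 11732699_a_at and 11732700_x_at were called lower in A549 and read below background on both A549 vector arrays. PC9 was thus at least 1.43-fold and at least 1.26-fold higher (measured means 4.92 and 4.74 in PC9, 3.91 and 3.89 in A549). Probe set 11727553_a_at was lower by −0.45 (limma adjusted p = 0.00886), a call lost without PC9 vector replicate 1 (−0.34). With 18S rRNA as a covariate it was −0.26 (limma adjusted p = 0.149). That covariate was centred within each line, so this value is not adjusted for the 18S gap between the lines. The brightest, 11755975_x_at, differed by −0.28 as deposited (limma adjusted p = 0.15) and by −0.35 after quantile normalisation (adjusted p = 0.0883), not called, and by −0.52 after centring, called (adjusted p = 0.0188). For 11727554_s_at the values were −0.20 (not called, limma adjusted p = 0.172), −0.31 (called, adjusted p = 0.0406) and −0.43 (called, adjusted p = 0.0105). The baseline of the brighter PKIB probe sets thus turned on the scaling.

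The 3 higher in A549 under all scalings were 2 probe sets of PRKAR1A and 1 of PRKAR2A. PRKAR1A was 2.49-fold higher by 11722007_a_at (limma adjusted p = 2.17e-07) and 2.88-fold higher by 11753791_s_at (adjusted p = 4.27e-07). Its brightest probe set differed by 0.34 as deposited and by 0.10 after centring, where the call was lost. PRKAR2A was 2.0-fold higher by 11746478_a_at (limma adjusted p = 8.49e-06), whereas its brightest probe set, 11760103_at, differed by −0.096 as deposited (adjusted p = 0.403) and was called lower after centring (−0.34, adjusted p = 0.0132). Probe sets of these genes disagree in size, so their baseline is given per probe set only. No PKIG probe set was called as deposited or after quantile normalisation, and 11728295_a_at was called lower after centring (−0.32, limma adjusted p = 0.0179).

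**Figure D4:**
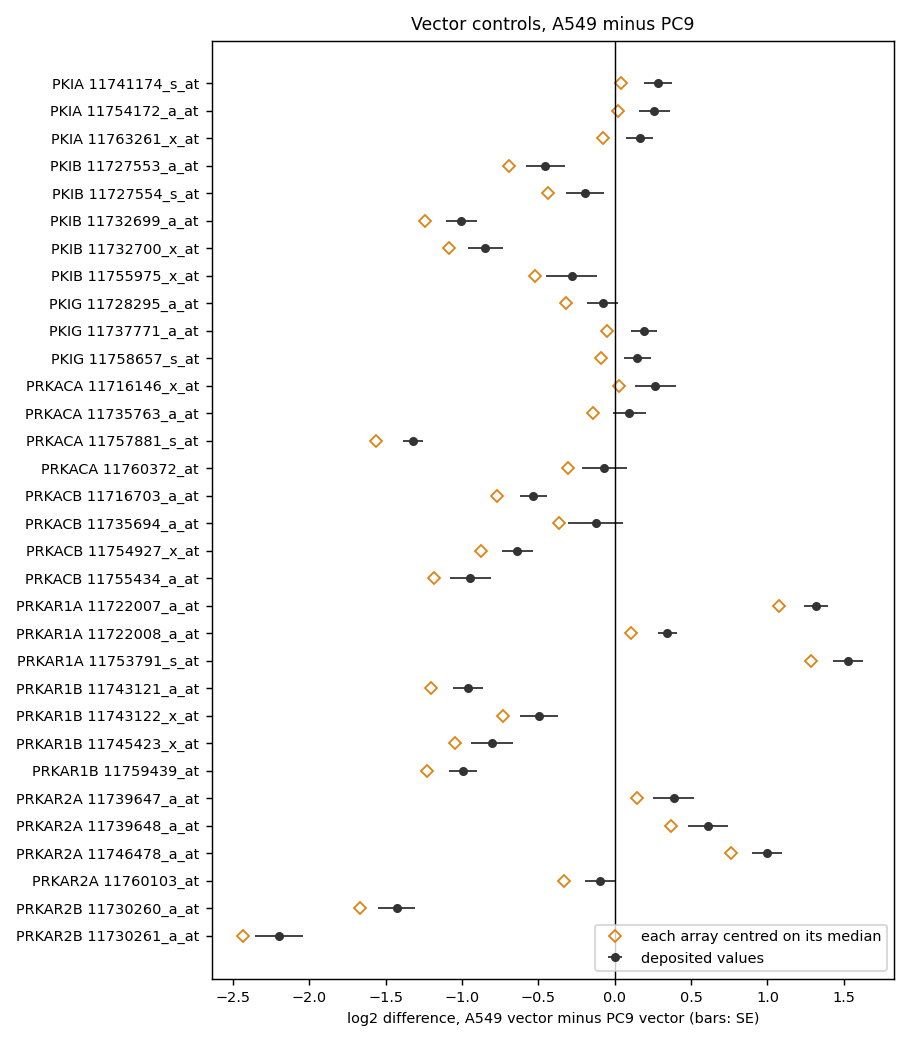
Log2 difference of the vector controls, A549 minus PC9, for all 32 probe sets, as deposited (black points with 1 SE) and after median centring (orange diamonds). PRKAR2B, PRKAR1B and the brightest PRKACA probe set lie left of 0 on both scales, and 2 PRKAR1A probe sets lie right of 0 on both.

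The rest of the cyclic AMP pathway was read from 90 measured genes in 9 lists, each gene by its brightest probe set. The lists were chosen with earlier results of these data known. Their calls, p-values and shares therefore describe these arrays and are no independent test. In A549, limma called 5 of the 90 higher with EN2 and 0 lower, where 2.27% of all genes were called (1.29% higher, 0.981% lower), and 18 had an unadjusted p below 0.05 (20% of the 90, against 16.7% of all genes). The median change of the 90 was 0.056, against −0.0015 over all genes. In PC9 0 of 90 were called by limma, where 0.329% of all genes were called. At an unadjusted p below 0.05 there were 12 (13.3%, against 6.25% of all genes). The 5 were PTGER4, PDE7B, NR4A1, NR4A2 and NR4A3. No G protein (0 of 5), adenylyl cyclase (0 of 10), A-kinase anchoring protein (0 of 18), related kinase or regulator (0 of 5), other cyclic AMP receptor (0 of 4) or member of the CREB family (0 of 10) was called in A549.

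Among CREB target genes, 3 of 13 rose in A549, all of them orphan nuclear receptors of the NR4A family, which are immediate early genes. NR4A2 read 7.77 and 7.55 with EN2 and 6.78 and 6.62 with vector, 1.95-fold higher (SE 0.11 on the log2 scale, limma adjusted p = 0.00219). NR4A1 read 9.65 and 9.53 with EN2 and 8.88 and 8.31 with vector, 1.99-fold higher (limma adjusted p = 0.0121). NR4A3 read 7.57 and 6.69 with EN2 and 5.91 and 5.56 with vector, 2.64-fold higher (limma adjusted p = 0.0226). EN2 arrays lay above vector arrays for all 3, with the widest spread for NR4A3. In PC9 the log2 changes were −0.080 for NR4A2, 0.00034 for NR4A1 and 0.0047 for NR4A3, none called. The difference of the changes between lines passed the test for NR4A2 (1.04, SE 0.16, limma adjusted p = 0.0213) and for no other of the 90 genes, where 0.608% of all genes passed. That call was lost without A549 EN2 replicate 1, A549 vector replicate 2 or any of the 4 PC9 arrays. With 18S rRNA as a covariate it was lost too (0.69, limma adjusted p = 0.636). The mean of the probe sets of each gene lost it as well.

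Of the 10 receptors that raise cyclic AMP, PTGER4, a prostaglandin E2 receptor coupled to Gs, was called. It read 8.12 and 7.67 with EN2 and 7.04 and 6.59 with vector in A549, 2.12-fold higher (limma adjusted p = 0.0165). Its log2 change in PC9 was 0.049. Of the 15 phosphodiesterases, PDE7B, which degrades cyclic AMP, was called. It read 7.21 and 7.28 with EN2 and 6.69 and 6.30 with vector in A549, 1.68-fold higher (limma adjusted p = 0.0275), and was below background on all PC9 arrays. A receptor that raises the messenger and an enzyme that removes it were thus both higher in A549 EN2 cells.

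These A549 calls rest on few arrays. Without A549 EN2 replicate 1, PTGER4 (0.86, limma adjusted p = 0.144), PDE7B (0.78), NR4A1 (0.93, adjusted p = 0.125) and NR4A3 (0.96) were no longer called, and without A549 vector replicate 2 neither were PTGER4 (0.86), PDE7B (0.55) and NR4A3 (1.22). PDE7B was also lost without A549 EN2 replicate 2 (0.71, limma adjusted p = 0.0882). With 18S rRNA as a covariate none of the 5 was called, at log2 changes of 0.27 for PTGER4, 0.53 for PDE7B, 0.47 for NR4A1, 0.60 for NR4A2 and 0.25 for NR4A3. The 18S signal did not overlap between EN2 and vector arrays in A549, so that fit cannot separate 18S rRNA from EN2. The part of the epithelial markers that were lower in the same arrays was not tested.

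**Figure D5:**
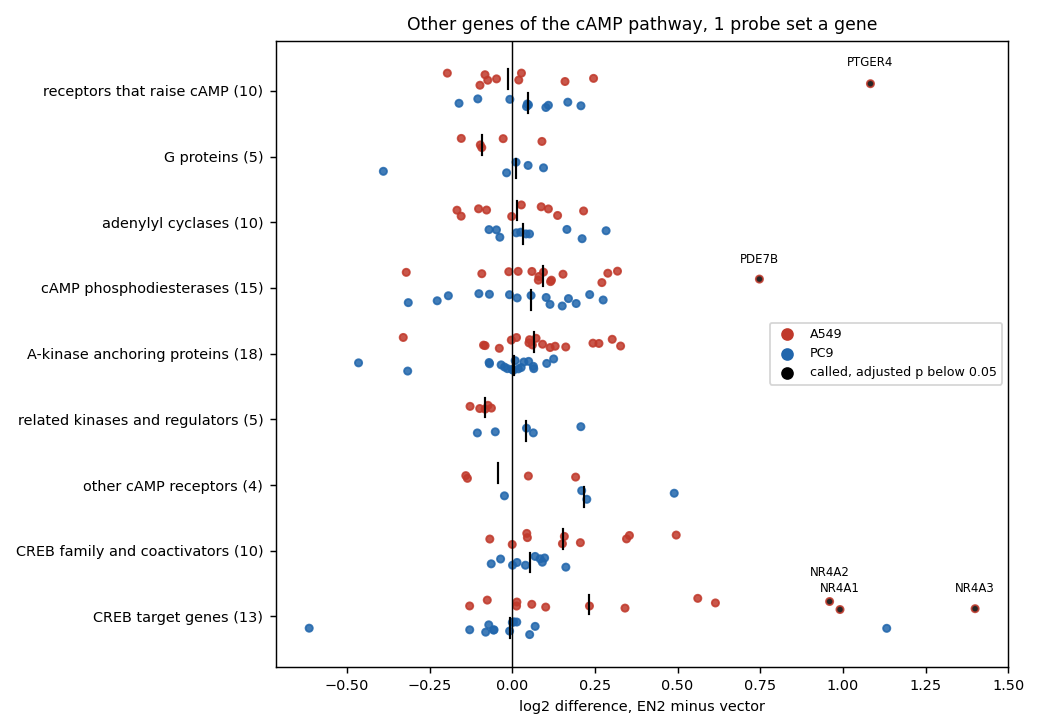
Log2 change, EN2 minus vector, of the 90 pathway genes by list, 1 point per gene, in A549 (red) and PC9 (blue), with the median of each list as a vertical tick. Points filled black passed the limma test; all 5 are A549 changes right of 0.

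Between the vector controls as deposited, 72 of the 90 pathway genes were called, 50 higher and 22 lower in A549. Of all genes 75.2% were called (45.7% higher, 29.6% lower). Under all 3 scalings 35 were higher and 22 lower, against 28.5% and 29% of all genes. Phosphodiesterases were 9 higher and 1 lower of 15, and A-kinase anchoring proteins 5 higher and 7 lower of 18. Within the phosphodiesterases PDE4B, which degrades cyclic AMP, had the largest difference. It read 9.58 and 9.33 in A549 vector and 3.95 and 3.83 in PC9 vector arrays, a log2 difference of 5.57 (limma adjusted p = 2.21e-10), with 1 of the PC9 arrays under background. AKAP12, an anchoring protein that binds type II regulatory subunits, was higher in A549 by 3.46 (limma adjusted p = 2.74e-10). The A549 vector arrays read 11.75 and 11.75 against 8.34 and 8.24 for PC9.

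On the deposited scale the called genes with the largest baseline difference in the other lists were also higher in A549. They were SIK1, a kinase of the CREB family list that restrains CREB coactivators (3.27, limma adjusted p = 6.25e-10), and DUSP1, a CREB target that dephosphorylates MAP kinases (3.94, limma adjusted p = 4.7e-07). The adenylyl cyclase ADCY1 differed by 2.05, the inhibitory G protein subunit GNAI1 by 1.51, the melanocortin receptor MC1R by 1.03 and the phosphatase inhibitor PPP1R1A by 0.75. POPDC1, a cyclic AMP binding membrane protein, was below background in both PC9 vector arrays and at least 6.96-fold higher in A549. Among receptors the order turned with the scaling, since PTGER4, lower in A549, differed by more than MC1R after quantile normalisation (−1.07 against 0.80) and after centring (−1.21 against 0.79). Among G proteins GNAS, the stimulatory subunit, was lower in A549 and differed by more than GNAI1 after centring (−1.33 against 1.27).

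The genes whose pattern was most like PKIB and PRKAR2B were ranked by Pearson correlation over the 8 arrays. Each line was centred on its own mean. The ranking took 15019 protein-coding genes whose brightest probe set averaged above 4.06, the 95th percentile of spike-in probe sets over all arrays. Symbols of uncharacterised loci and open reading frames were left out, as were numbered FAM, KIAA and TMEM symbols. The ranks are descriptions over arrays that share the EN2 contrast, with no test. PKIB ran most closely with ANXA10 (r = 0.984), SEMA3B (0.983), DCAF12 (0.982), KIF1C (0.980) and CCNG1 (0.978). It ran most opposite to PAN2 (r = −0.990), ACSL4 (−0.989) and MYRFL (−0.988). ANXA10, an annexin, changed by −1.63 in A549 and by −0.62 in PC9 on the log2 scale. The other 4 had changes from −0.37 to −0.030. PRKAR2B ran most closely with CFAP144 (r = 0.994), RBP4 (0.993), KLHL42 (0.988), PLCB1 (0.982) and ITGB2 (0.980), and most opposite to CRB1 (r = −0.981), PRR22 (−0.980) and FECH (−0.973). The retinol carrier RBP4 changed by 0.90 in A549 and 1.33 in PC9. The phospholipase PLCB1 changed by 1.07 and 1.49. Both were larger in PC9 than in A549, as PRKAR2B was. PKIB and PRKAR2B themselves had r = −0.698.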

How the data were processed

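Total RNA of 8 samples in 4 groups was measured on single-colour arrays. The deposited values were log2 signals. The submitters' processing notes name RMA, and give no version. Whether all arrays were normalised in 1 run is not stated. Genes were named from the array annotation, with symbols updated through RefSeq (GRCh38.p14). Of the probe sets other than controls, 45278 had 1 symbol, 1333 several and 2682 none.

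All 8 arrays entered 1 model of group means in limma 3.58.1 under R 4.3.3 (lmFit, then eBayes with an intensity trend, 4 residual degrees of freedom, two-sided). P-values were adjusted by Benjamini-Hochberg over all 49293 probe sets, and a call was an adjusted p below 0.05. An exact permutation test of 2 against 2 arrays cannot go below p = 0.333. Where every array of a group was below background, a bound replaced the fold. It set the bright group's mean against the higher of the background and the dim group's own mean. The number of arrays limits precision.

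The members and the pathway lists were chosen with earlier results of these data known. Named pathway genes were those called with EN2 and, per list, the called gene with the largest baseline difference. For PKIB and PRKAR2B they were the 5 most like and 3 most opposite genes. Of the listed pathway symbols, 10 had no probe set of 1 symbol. A further probe set shared by CTU2 and PRKAR2A was left out by the rule. Promoter letters were searched with Python 3.11.15. Alternatives were other scalings, priors, filters, probe set summaries, array subsets, a replicate block and an 18S rRNA covariate.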

Additional observations from a re-analysis of the deposited data

Results flagged for a closer look

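The change of NR4A2 with EN2, a nuclear receptor gene and CREB target, differed between the lines by the test of the difference itself. Its log2 change was 1.04 larger in A549 than in PC9 (SE 0.16, limma adjusted p = 0.0213). Of the 15 alternatives that fitted this probe set itself, the call was lost in 7. It was lost with 18S rRNA as a covariate (0.69, limma adjusted p = 0.636), without A549 EN2 replicate 1 (0.93) and without A549 vector replicate 2 (0.96). It was also lost without each of the 4 PC9 arrays in turn (0.96 to 1.12). Outside those 15, it was lost by the mean of the probe sets of each gene. With 2 arrays a group, no single array could be checked against its group. NR4A2 stood in a list chosen with earlier results of these data known, so its p-value is no independent test.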

How the results depend on the processing

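For the 7 genes other than PKIB and PRKAR2B, 0 probe sets passed in either line or for the difference under every alternative that kept 2 arrays in each group compared. For PKIB and PRKAR2B the EN2 and vector arrays did not overlap, so leaving out an array could not turn the direction. The EN2 changes that turned sign were near 0 and none was called. With 18S rRNA as a covariate, centred within each line, PKIA in A549 became 0.12 and PRKACB −0.14. Leaving out each array gave −0.084 to 0.017 for PKIA and −0.041 to 0.071 for PRKAR1A in A549. In PC9 it gave −0.22 to 0.014 for PKIG, −0.038 to 0.12 for PRKACB, −0.026 to 0.059 for PRKAR1A, −0.067 to 0.083 for PRKAR1B and −0.00068 to 0.26 for PRKAR2A. Between the vector controls, PKIA went from 0.28, called, to −0.11 after quantile normalisation. Of the 9 members, 6 were called there by the brightest probe set of each gene and 8 by the mean of its probe sets. Of all 18244 genes, 13823 and 14142 were called in the same settings. Pathway calls in A549 were 1 on the A549 arrays alone, 0 with the covariate and 1 to 7 without each array (1 without EN2 replicate 1, 2 without vector replicate 2). In PC9 they were 1 with the covariate. For the difference they were 0 by mean probe sets, 0 with the covariate and 0 to 3 without each array. With the replicate number as a block, pathway calls were 12 in A549, 3 in PC9 and 7 for the difference. Of all 49293 probe sets, 2946, 259 and 840 were called with the block. The deviations of same-numbered arrays correlated at 0.34 in A549 and 0.075 in PC9, and no label says that the numbers pair samples. Over all probe sets, calls in A549 went from 977 to 222 on its own arrays, 2946 with the block, 25 with the covariate, 240 without EN2 replicate 1 and 277 without vector replicate 2. In PC9 they went from 140 to 35 on its own arrays, 259 with the block and 48 to 61 without each PC9 array. The causes were not tested. A group left with 1 array takes its spread from the rest. A fit on the arrays of 1 comparison alone could not be made for the difference. Signal over background limits PKIA, 2 PKIB probe sets in A549 and the PC9 values of PDE7B. It also limits PRKACA by 11716146_x_at and 11735763_a_at and PRKACB by 11754927_x_at in A549.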
